A study of Mus musculus with 59 samples.

Results

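AMPA receptors carry most fast excitatory transmission between neurons of the cortex. Each receptor is a tetramer of the pore-forming subunits GluA1 to GluA4, encoded by Gria1 to Gria4. Auxiliary subunits bind to the tetramer and set its export, its anchoring at the synapse and the speed of its gating. Here 10 genes of this receptor were followed, chosen by name: the 4 Gria genes, the transmembrane AMPA receptor regulatory proteins Cacng2 (stargazin, gamma-2), Cacng3 (gamma-3) and Cacng8 (gamma-8), the cornichon homologs Cnih2 and Cnih3, and Shisa9 (CKAMP44). They were matched by Ensembl identifier and GRCm38 gene model, and all 10 were among the 51456 identifiers of the table and passed the filter on low values that left 16919 genes.

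The 59 RNA-seq libraries came from prefrontal cortex taken at postnatal day 25 from C57BL/6J mice. The mice were heterozygous for Ank2 (HT) or wild type (WT); Ank2 encodes ankyrin-B, which ties proteins of the membrane to the cytoskeleton of spectrin beneath it. They had received vehicle, fluoxetine (a serotonin reuptake inhibitor) or lithium (a mood stabilizer) for 3 weeks, from day 3 to day 24 through the mother's milk, and the labels give no dose. Of the 6 groups of genotype and drug, WT vehicle, HT vehicle, HT fluoxetine, WT lithium and HT lithium had 10 libraries each, 5 from females and 5 from males, and WT fluoxetine had 9, with 4 from males. The labels name the heterozygous genotype without describing the allele, and do not say whether libraries came from separate animals or litters, so p-values measure the spread between libraries. The tissue was taken whole, and fewer cells of a type and less RNA per cell cannot be told apart.

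Values are normalized values, here taken as estimated counts per gene that the authors divided by a factor per library. They summed to 30.3 M to 33.8 M per library, and 22566 to 23745 genes were above 0. Ank2 was at 28470 ± 2080 (SD, n = 10) in WT vehicle and at 19580 ± 660 (SD, n = 10) in HT vehicle, and no HT library reached the lowest WT vehicle library (23284). Xist and Ddx3y fitted the labelled sex in all 59 libraries. One library stood apart. In HT fluoxetine female replicate 2 the summed value of 5 choroid plexus markers was 77925, against a median of 166 in its group, and that of 4 dentate gyrus markers was 7516, against 454. All 6 oligodendrocyte markers were also at their highest in it. Results that rest on this library are therefore given with and without it, though not always where it enters only through the spread pooled over all 59 libraries. Markers of the olfactory bulb (5 genes) varied widely, from a summed value of 171 in that library to 8540 in WT vehicle female replicate 1.

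The 4 pore-forming subunits share most of the membrane loop that lines the channel, and the identity of 1 residue in it, the Q/R site, sets whether calcium can pass. The codon for this glutamine, in capitals below, lay in exon 11 of 16 of Gria1, Gria2 and Gria3 and in exon 12 of 17 of Gria4 (GRCm38, GENCODE M21 transcripts, sequence 5′ to 3′ on the coding strand). The sequences are shown because this codon is what sets GluA2 apart from the other subunits in function.
Gria1, chr11:57243073-57243117, plus strand: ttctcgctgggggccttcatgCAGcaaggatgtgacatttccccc
Gria2, chr3:80706890-80706934, minus strand: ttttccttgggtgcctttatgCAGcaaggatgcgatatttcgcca
Gria3, chrX:41610244-41610288, plus strand: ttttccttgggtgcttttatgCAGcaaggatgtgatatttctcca
Gria4, chr9:4464116-4464160, minus strand: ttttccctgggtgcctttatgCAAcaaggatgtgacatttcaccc
The 45 bases of Gria2 and Gria3 differed at 3 positions, those of Gria1 and Gria4, Gria2 and Gria4, and Gria3 and Gria4 at 6, and those of Gria1 at 9 from both Gria2 and Gria3. All 4 genes encode glutamine at this site in the genome. In Gria2 mRNA the codon is known to be edited to one for arginine by ADAR2, the product of Adarb1, which makes GluA2-containing receptors nearly impermeable to calcium. The table sums reads over each gene, so neither this editing nor the flip and flop splice forms were measured.

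Between genes, levels can be compared only per length. Per kilobase of the longest annotated transcript, and averaged over the 59 libraries, Cnih2, an export and gating partner of the receptor, was highest with a normalized value of 3081 ± 512 (SD). Gria2, whose subunit controls calcium entry, followed with 2491 ± 123, Gria1, the subunit whose synaptic delivery follows plasticity, with 2211 ± 488, and Gria3 with 2105 ± 194. Cacng3 stood at 1455 ± 204 per kilobase and Cnih3 at 1001 ± 84.8. Gria4, in the adult cortex a subunit of inhibitory interneurons above all, stood at 733.5 ± 81.0, Cacng8 at 616.3 ± 99.0, Shisa9 at 550 ± 43.4 and Cacng2 at 513.5 ± 46.9. Gria1 and Gria3 could not be ordered, since Gria1 was higher in 30 of 59 libraries, and Shisa9 was above Cacng2 in only 40. The other neighbours kept their order in 50 to 59 of the 59 libraries. The order depends on the transcript taken: that of Gria2 spans 10371 bases, and that of Cnih2 1343. These means and SDs include HT fluoxetine female replicate 2. By group, the SD of Gria1 was 1100 in HT fluoxetine and 133 to 190 in the others. That of Cnih2 was 943 in HT fluoxetine and 238 to 395 in the others.

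Of the summed level per kilobase of the 4 Gria genes, Gria2 made up 33.7% ± 0.692 (SD, n = 10) in WT vehicle, Gria1 28.9% ± 1.96, Gria3 27.8% ± 2.05 and Gria4 9.67% ± 0.853. In HT vehicle the shares were 33.5% ± 0.765, 28.6% ± 1.51, 28.1% ± 1.92 and 9.84% ± 0.863. Under vehicle the shares of the 2 genotypes thus lay within 1 SD of each other for every subunit. Under lithium the Gria2 share was 33.7% ± 0.611 in WT and 32.4% ± 0.749 in HT (SD, n = 10 each), farther apart than 1 SD. In WT fluoxetine it was 32.8% ± 0.45 (SD, n = 9), more than 1 SD below WT vehicle, and in HT fluoxetine 32.4% ± 1.87 (SD, n = 10). The shares were not tested. Over all libraries the Gria2 share stayed between 27.3% and 34.8%, and its 27.3% was that of HT fluoxetine female replicate 2.

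**Figure D1:**
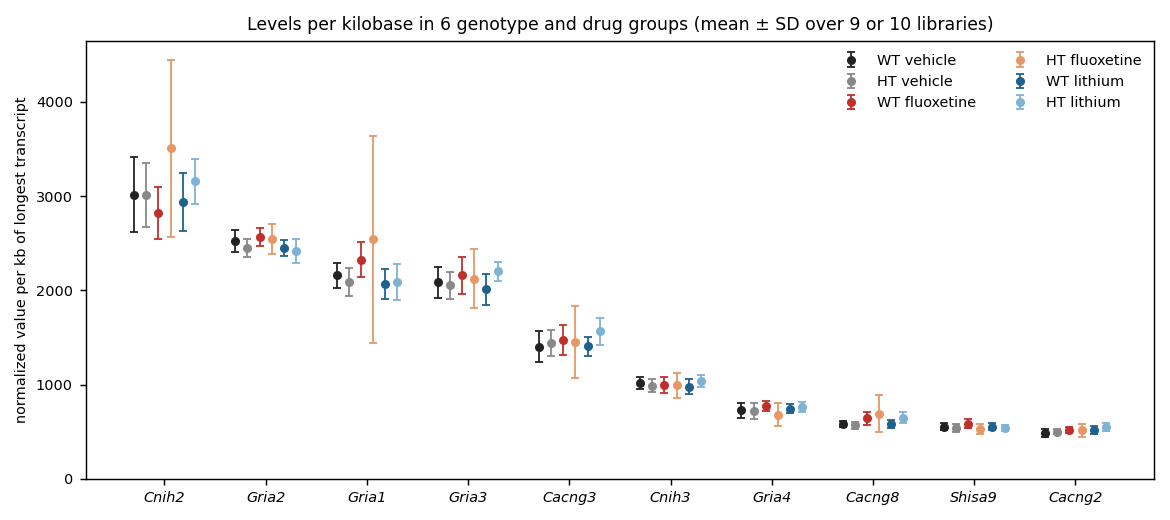
Normalized value per kilobase of the longest transcript (vertical axis) for the 10 genes, ordered by their mean; points are means and bars SD over the 9 or 10 libraries of each genotype and drug group. The order from Cnih2 (3081) to Cacng2 (513.5) is that of the means over all libraries, and not every group kept it. In HT fluoxetine, which includes the library that stood apart, Gria4 (680.3) was below Cacng8 (691.8). In HT lithium Gria1 (2091) was below Gria3 (2201), and Shisa9 (542.1) below Cacng2 (548.6).

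The first comparison set HT against WT mice without a drug. None of the 10 genes was called, and none had an unadjusted p under 0.05 in limma or in an exact permutation test within each sex. A call means a Benjamini-Hochberg adjusted p under 0.05 in limma over all 16919 genes. The background was as low: 0% of all genes were called higher and 0.00591% lower, which was a single gene, while 578 genes had an unadjusted p under 0.05. The log2 changes of the members ran from -0.05 to 0.04, with a median of -0.03 beside 0.00 (-4e-04) for all genes, and 3 of 10 were above 0. Gria2, the most tightly held of them, ranged from 23988 to 27948 in WT vehicle (median 26373) and from 23723 to 27018 in HT vehicle (median 25368). The 2 ranges overlapped almost wholly, and the log2 change was -0.04 (95% interval -0.11 to 0.02). The intervals of the other 9 genes reached no further than -0.23 (Gria1) and 0.27 (Cacng3). These widths draw on the spread pooled over all 59 libraries, which includes HT fluoxetine female replicate 2. That within-group SD was 0.207 for Gria1 and 0.269 for Cacng3, and 0.105 and 0.133 without that library.

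Fluoxetine was then compared with vehicle within each genotype. In WT mice no member was called (0 at an unadjusted p under 0.05 in limma, and 2, Gria1 and Cacng8, in the exact permutation test), beside 7% of all genes called higher and 7.78% called lower. The log2 changes ran from -0.09 (Cnih2) to 0.13 (Cacng8), 8 of 10 were above 0, and the median was 0.08 beside -6e-04 for all genes. Cacng8, which holds AMPA receptors at the synapse and is known best from the hippocampus, ranged from 960 to 1149 in WT vehicle (median 1119) and from 925 to 1330 in WT fluoxetine (median 1244). In WT fluoxetine 7 of 9 libraries were above every vehicle library, and 1 (male replicate 1, at 925) was below every one. The log2 change of 0.13 (SE 0.07) missed the threshold (adjusted p = 0.245 in limma). Gria1 ranged from 11099 to 13353 in WT vehicle (median 11820) and from 11335 to 14597 in WT fluoxetine (median 12524), and its log2 change was 0.10 (SE 0.09, adjusted p = 0.544 in limma). The SEs draw on the pooled spread, which includes HT fluoxetine female replicate 2. The exact permutation test uses only the libraries compared, and its unadjusted p was 0.0371 for Gria1 and 0.0471 for Cacng8.

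For Gria2 the answer depended on the processing. Its values in WT fluoxetine, from 24655 to 27606 (median 27050), lay within the range of WT vehicle, and the log2 change was 0.02 (SE 0.03, adjusted p = 0.706 in limma). When the dependence of log2 values on transcript length and GC content was removed within each library, the change became -0.15 with an adjusted p of 0.000352, a call in the other direction. Gria2 has the longest transcript and, at 36.82%, the lowest GC content of the 10 genes.

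**Figure D2:**
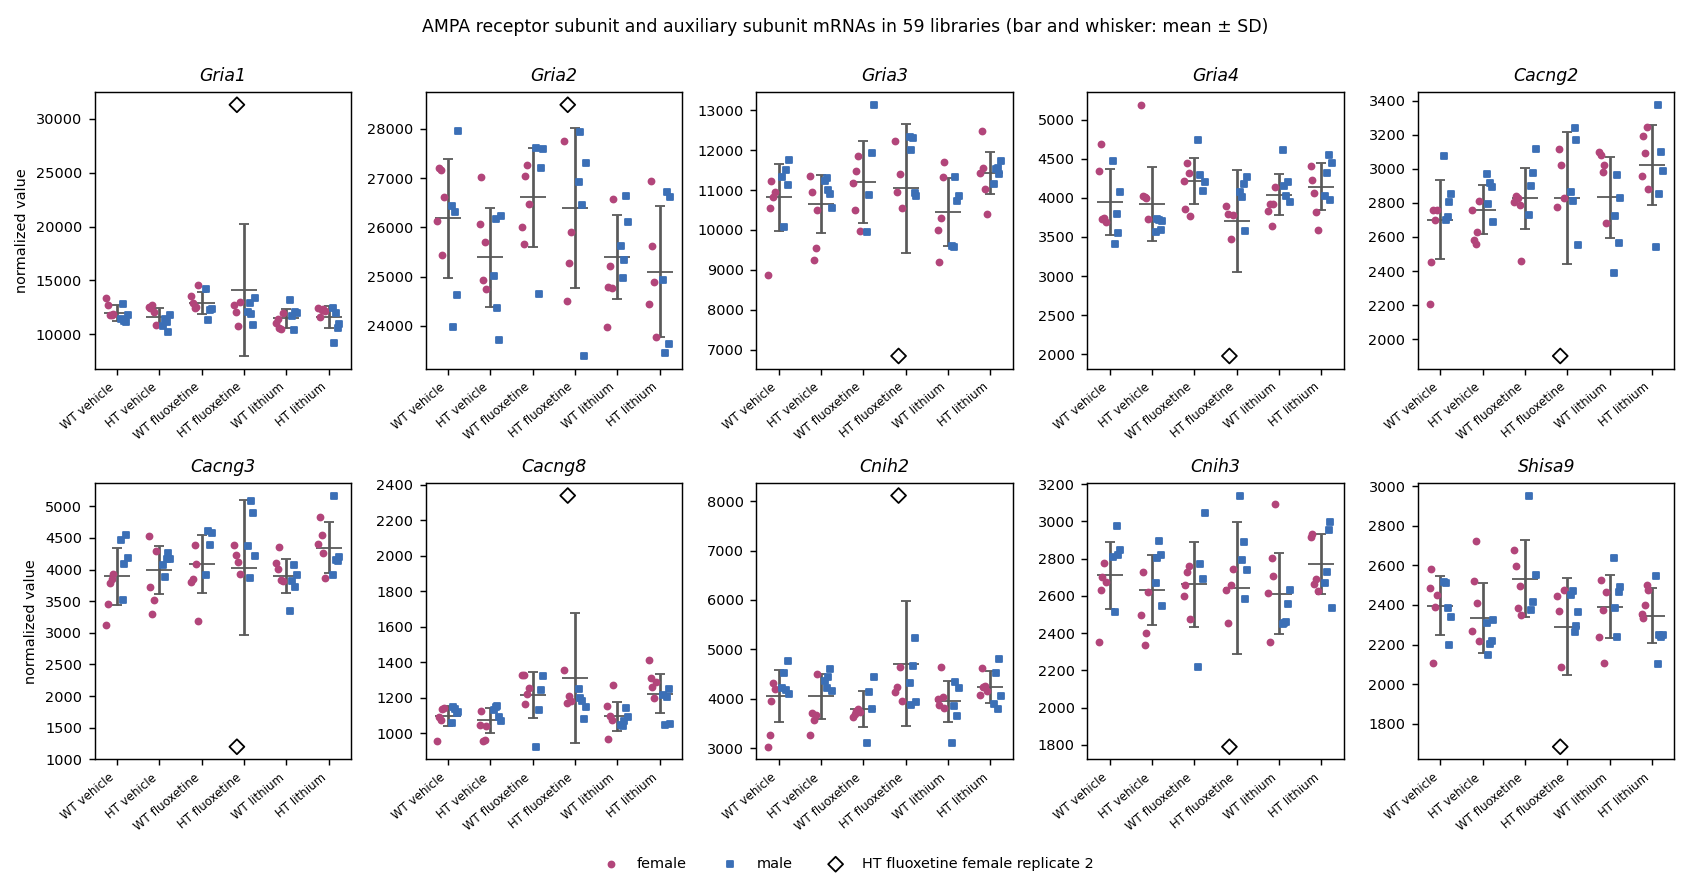
Normalized value (vertical axis, own linear scale per gene, not starting at 0) of the 10 genes in each library, by genotype and drug group. Circles are females, squares males, the open diamond is HT fluoxetine female replicate 2, and bar and whisker are mean and SD. That library is the highest or the lowest of all 59 in every panel, and most of the other Cacng8 values lie above vehicle in WT fluoxetine, HT fluoxetine and HT lithium, but not in WT lithium.

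In HT mice fluoxetine raised 1 of the 10 mRNAs, Cacng8, and lowered none. Of all genes, 6.63% were called higher and 7.38% lower, so 1 of 10 is near the background share. Cacng8 ranged from 956 to 1156 in HT vehicle (median 1082) and from 1083 to 2339 in HT fluoxetine (median 1190). All 10 fluoxetine libraries were above the vehicle median, 8 of them above every vehicle library. The log2 change was 0.26 (SE 0.07, adjusted p = 0.0084 in limma).

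The value of 2339 was that of HT fluoxetine female replicate 2, whose markers stand apart. Without that library the log2 change of Cacng8 was 0.16 (SE 0.05, 1.12-fold, adjusted p = 0.0162 in limma), so the fold shrank and the call held. In that fit 7.19% of all genes were called higher and 7.54% lower. The call was lost when only the 20 libraries compared entered the fit (0.26, SE 0.09, adjusted p = 0.0846), a fit in which no member was called.

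By sex, Cacng8 was called in HT females and not in HT males. Vehicle females stood at 956, 964, 1039, 1045 and 1125, and fluoxetine females at 1173, 1180, 1209, 1359 and 2339, with no overlap. Their log2 change was 0.45 (SE 0.10, adjusted p = 0.00344 in limma), and 0.26 without replicate 2 (adjusted p = 0.0207). Males stood at 1072 to 1156 under vehicle and at 1083 to 1251 under fluoxetine, which overlapped, with a log2 change of 0.06 (SE 0.10, adjusted p = 0.824 in limma). The difference between the sexes was itself tested and was not called: -0.38 on the log2 scale (male minus female, SE 0.14, adjusted p = 0.519 in limma), and -0.20 without replicate 2 (adjusted p = 0.89). Among all genes 4.31% were called higher and 4.43% lower in females, and 0.975% higher and 2.39% lower in males. Of the HT vehicle females, replicates 1 to 4 also had high olfactory bulb markers, with mean log2 deviations of 1.24 to 2.11 from the average of all libraries, and the part of this in the result was not tested.

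The pore-forming subunits moved little in HT mice under fluoxetine. Gria1 ranged from 10210 to 12751 in HT vehicle (median 11591) and from 10731 to 31305 in HT fluoxetine (median 12404). Its log2 change was 0.21 (SE 0.09, adjusted p = 0.116 in limma), and it fell to 0.07 (SE 0.05, adjusted p = 0.349) without replicate 2. Without HT fluoxetine female replicate 4, which had the lowest value of the group, it was 0.26 and was called (adjusted p = 0.0349). Gria2 changed by 0.05 (SE 0.03), Gria3 by 0.04 (SE 0.06) and Gria4 by -0.10 (SE 0.07), none of them called. Without replicate 2 the changes were 0.04 for Gria2, 0.11 for Gria3 (adjusted p = 0.128 in limma) and -0.01 for Gria4, and again none was called. Gria4 alone was called lower in HT females (-0.34, SE 0.10, adjusted p = 0.027 in limma), in a group where replicate 2 was at 1977 and the other females at 3469 to 3899. Without replicate 2 no Gria gene was called in females.

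Among the auxiliary subunits, Cnih2 ranged from 3267 to 4612 in HT vehicle (median 4181) and from 3866 to 8114 in HT fluoxetine (median 4279). The medians were close, and the log2 change of 0.19 (SE 0.08, adjusted p = 0.112 in limma) became 0.10 (SE 0.07, adjusted p = 0.34) without replicate 2. In HT females alone Cnih2 was called higher (0.37, adjusted p = 0.034), and not without that library. Cacng2, the founding member of its family, changed by 0.02 (SE 0.06), Cacng3 by -0.06 (SE 0.12), Cnih3 by 0.00 (-0.0042, SE 0.05) and Shisa9, which slows recovery from desensitization, by -0.03 (SE 0.05). Without replicate 2 these were 0.09, 0.12, 0.05 and 0.01, so the signs of Cacng3, Cnih3 and Shisa9 turned. Over the 10 members the median was 0.03 beside -0.0024 for all genes, and 6 of 10 were above 0. Without replicate 2 the median was 0.08 beside 0.0012 for all genes, and 9 of 10 were above 0.

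**Figure D3:**
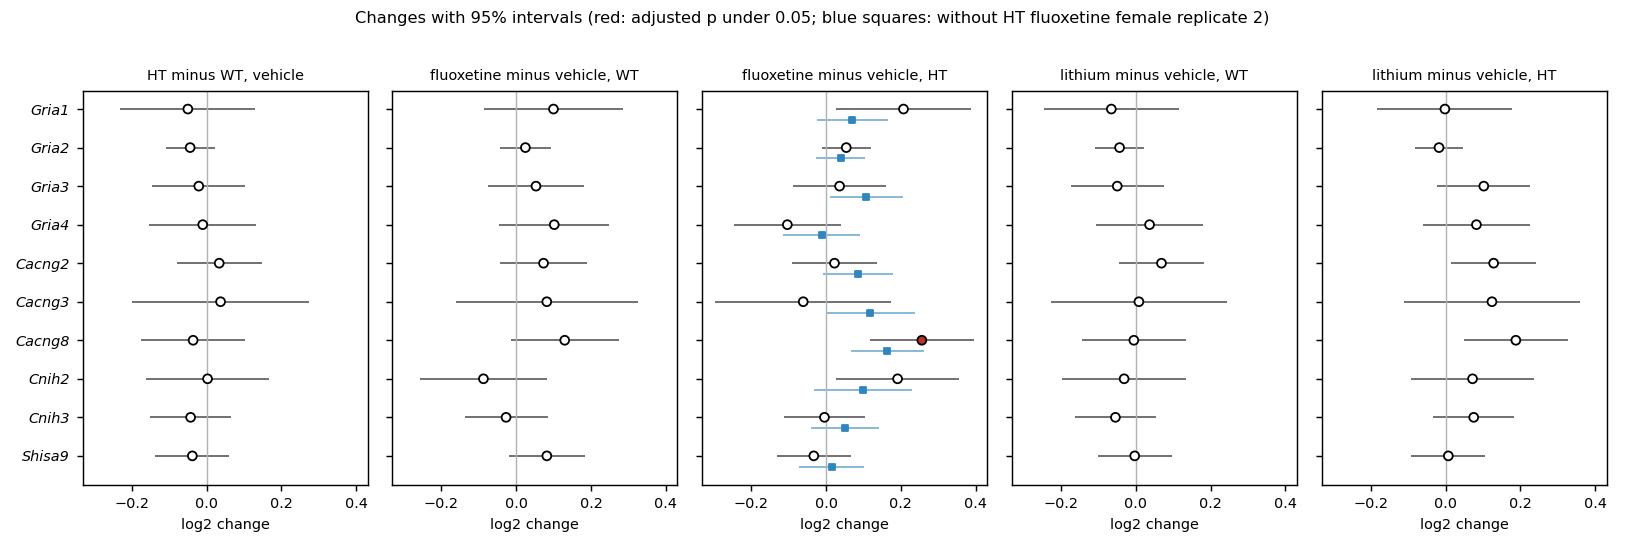
Log2 change with its 95% interval (horizontal axis) for the 10 genes in 5 comparisons: HT against WT under vehicle, and each drug against vehicle in each genotype. The single filled point is Cacng8 under fluoxetine in HT (0.26); squares in that panel give the fit without HT fluoxetine female replicate 2, where Cacng8 (0.16) was called too.

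Lithium was compared with vehicle in the same way, against the same vehicle libraries. In WT mice no member was called (0 at an unadjusted p under 0.05 in limma and in the exact permutation test), beside 1.33% of all genes higher and 0.892% lower. Their log2 changes ran from -0.07 (Gria1) to 0.07 (Cacng2), with 3 of 10 above 0 and a median of -0.02. Cacng8 differed by -0.01 (SE 0.07), with 970 to 1272 under lithium (median 1085).

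In HT mice no member was called under lithium either (2 at an unadjusted p under 0.05 in limma, Cacng2 and Cacng8, and with Gria3 3 in the exact permutation test), beside 2.75% of all genes higher and 2.26% lower. Here 8 of 10 members were above 0 (48.1% of all genes), and their median was 0.08 beside -0.0048. Cacng8 had the largest change, 0.19 (SE 0.07, adjusted p = 0.103 in limma), with values of 1046 to 1412 (median 1234) and 8 of 10 libraries above every vehicle library. The call was made when only the 20 libraries compared were fitted (adjusted p = 0.0137 in limma). It was also made when HT fluoxetine female replicate 2, which enters only the pooled spread here, was left out (0.19, SE 0.05, adjusted p = 0.00964). Leaving out 4 libraries picked from earlier results of these data gave the call too (0.20, adjusted p = 0.00815). These were HT fluoxetine female replicates 2 and 4, HT vehicle female replicate 1 and HT vehicle male replicate 2. In HT lithium females Cacng8 stood at 1197, 1260, 1290, 1311 and 1412, above all 5 vehicle females. Their log2 change was 0.34 (SE 0.10, adjusted p = 0.0372 in limma), in a comparison where 2.1% of all genes were called higher and 2.35% lower. In HT males it was 0.04 (SE 0.10, adjusted p = 0.957). Most of the HT vehicle females had high olfactory bulb markers, as given for fluoxetine, and the part of this in the female result was not tested. The difference between the sexes under lithium was tested only over both genotypes together, where no member was called. Cacng2 ranged from 2558 to 2969 in HT vehicle (median 2775) and from 2539 to 3376 in HT lithium (median 3040), with a change of 0.13 (SE 0.06, adjusted p = 0.176 in limma). Gria3 ranged from 9256 to 11350 and from 10402 to 12481 (medians 10925 and 11476), with a change of 0.10 (SE 0.06, adjusted p = 0.347).

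Whether a drug acted differently in the 2 genotypes was tested as the difference of the 2 changes. No member was called for fluoxetine or for lithium (2 and 0 at an unadjusted p under 0.05 in limma), and 0% of all genes were, in either direction (1291 and 1139 genes at an unadjusted p under 0.05). For fluoxetine the largest differences, HT minus WT, were 0.28 for Cnih2 (SE 0.12, adjusted p = 0.631 in limma) and -0.21 for Gria4 (SE 0.10, adjusted p = 0.654). Without replicate 2 these were 0.19 and -0.11. The median deviation of the olfactory bulb markers was 0.598 in WT vehicle and 0.622 in WT fluoxetine. In HT vehicle it was 0.265 and in HT fluoxetine -1.147, and its part in these differences was not tested. For lithium all 10 differences were above 0, from 0.01 (Shisa9) to 0.19 (Cacng8, SE 0.10, adjusted p = 0.726), beside 49.1% of all genes. The members share libraries and some vary together, so the 10 signs are not independent.

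Under either drug, HT and WT mice were also compared directly. Under fluoxetine no member was called (3 at an unadjusted p under 0.05), beside 0.00591% of all genes in each direction. Cnih2 was 0.28 higher in HT on the log2 scale (SE 0.08, adjusted p = 0.114 in limma), Gria4 differed by -0.22 (SE 0.07, adjusted p = 0.154) and Shisa9 by -0.15 (SE 0.05, adjusted p = 0.146). The 3 differences were 0.19, -0.12 and -0.10 without replicate 2, with adjusted p of 0.208, 0.285 and 0.281. Olfactory bulb markers differed between these groups too, with a median deviation of -1.147 in HT fluoxetine and 0.622 in WT fluoxetine. Within groups, r with these markers was -0.752 for Cnih2, 0.438 for Gria4 and 0.626 for Shisa9. The part of these markers in the 3 differences was not tested. Under lithium no member was called (2 at an unadjusted p under 0.05), beside 0.231% of all genes higher and 0.319% lower, and the largest difference was that of Cacng8 (0.16, SE 0.07, adjusted p = 0.25).

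Set directly against each other, fluoxetine minus lithium gave 0 calls among the members in WT, beside 10.1% of all genes higher and 11.2% lower, and 0 in HT, beside 6.18% and 6.88%. At an unadjusted p under 0.05 in limma there were 1 and 3. In WT the largest difference was 0.16 for Gria1 (SE 0.09, adjusted p = 0.215 in limma), which was called with only the groups compared (adjusted p = 0.0188). In WT, when replicate 2 was left out and the pooled spread came from the other 58 libraries, Gria1 (0.16, adjusted p = 0.00746) and Cacng8 (0.13, adjusted p = 0.0351) were both called. In HT the largest difference was 0.21 for Gria1 (SE 0.09, adjusted p = 0.114), which was 0.07 without replicate 2 (adjusted p = 0.356). Gria4 differed by -0.19 (SE 0.07, adjusted p = 0.0723), and by -0.09 without replicate 2 (adjusted p = 0.241).

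Between males and females no member was called over all groups (1 at an unadjusted p under 0.05), beside 1.3% of all genes higher and 0.798% lower in males. Gria3, which lies on the X chromosome, differed by 0.07 on the log2 scale, male minus female (SE 0.04, adjusted p = 0.25 in limma), and Cacng3 by 0.14 (SE 0.07, adjusted p = 0.267), while Gria1 differed by -0.10 (SE 0.05, adjusted p = 0.285). Without replicate 2 the 3 differences were 0.05, 0.08 and -0.05, none of them called. Differences of the drug changes between the sexes, averaged over genotypes, were called for no member and for 0% of all genes (for fluoxetine 3 members and 2146 genes, and for lithium 4 members and 2500 genes, at an unadjusted p under 0.05 in limma). The smallest p among the members was that of Gria4 under fluoxetine (0.31, male minus female, SE 0.10, unadjusted p = 0.00426 and adjusted p = 0.255 in limma).

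HT fluoxetine female replicate 2 showed how far the composition of these mRNAs can shift. Every one of the 10 members was at its highest (4 genes) or lowest (6 genes) of all 59 libraries in it. Gria1 was at 31305 against 12180 ± 923 (SD, n = 9) in the other HT fluoxetine libraries, a ratio of 2.57. Cacng8, at 2339 against 1198 ± 75.6, and Cnih2, at 8114 against 4332 ± 441, had ratios of 1.95 and 1.87. Gria2 differed least, at 28489 against 26160 ± 1540 (ratio 1.09). Cacng3 was at 1198 against 4346 ± 407 (ratio 0.276) and Gria4 at 1977 against 3893 ± 266 (ratio 0.508). Gria3, Cacng2, Cnih3 and Shisa9 had ratios of 0.594, 0.649, 0.654 and 0.714. The root mean square log2 distance of the 10 genes from the group was 0.979 in this library and 0.261 in the next (WT vehicle female replicate 1). All 4 dentate gyrus markers (mean log2 deviation 4.79), all 5 of the choroid plexus (6.71) and all 6 of oligodendrocytes (1.62) were highest of 59 in the same library, and their part in the members' values was not tested.

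**Figure D4:**
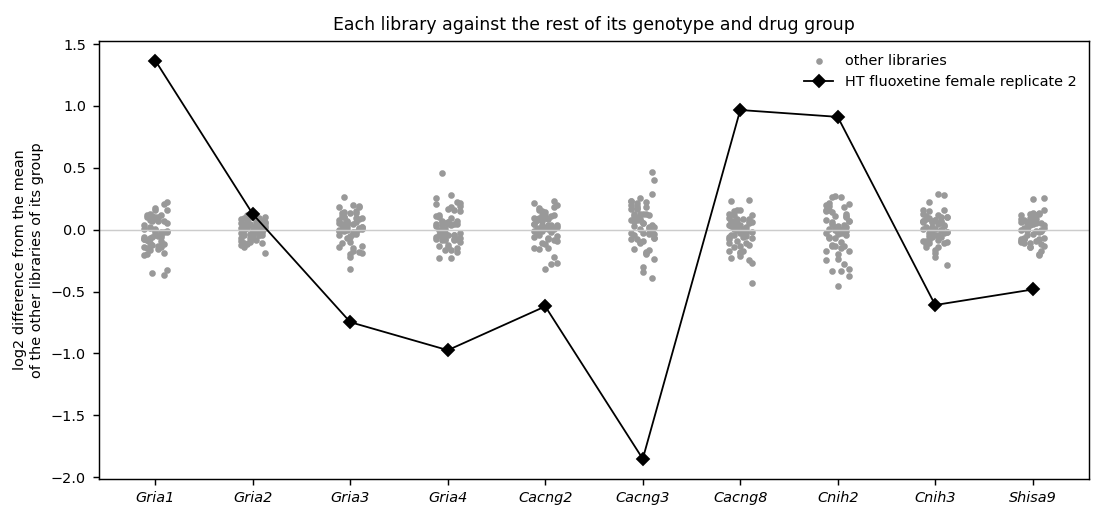
Log2 difference of each library from the mean of the other libraries of its genotype and drug group (vertical axis) for the 10 genes. Grey points are 58 libraries; the black diamonds joined by a line are HT fluoxetine female replicate 2, with Gria1, Cacng8 and Cnih2 far above and Cacng3 furthest below the others.

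The spread of the members within groups rested in large part on that library. Over the 59 libraries the pooled within-group SD on the log2 scale was 0.07 for Gria2, at the 5.3rd percentile of all genes tested, and 0.269 for Cacng3, at the 71.7th. Gria1 (0.207), Cnih2 (0.189) and Gria4 (0.164) were also above the median of all genes (0.16). Without replicate 2 all 10 members lay below the median of all genes (0.149): Cnih2 was at 0.146, Cacng3 at 0.133, Gria4 at 0.114, Gria3 at 0.107, Cacng8 at 0.106 and Gria1 at 0.105. Cacng2 (0.102), Cnih3 (0.1) and Shisa9 (0.094) followed, and Gria2 was again lowest at 0.068, the 5.8th percentile.

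Within groups the members did not vary as 1 block. Correlations were computed over the 59 libraries after each group's mean was removed, for 45 pairs, with p from 100000 permutations within groups, and 12 pairs passed an adjusted p of 0.05. Gria1 and Cacng3 ran opposite (Pearson's r = -0.926, permutation p = 1e-05, adjusted p = 7.5e-05; Spearman's rho = -0.795, permutation p = 1e-05, adjusted p = 9e-05). This p is the smallest the permutations can give. Without the 2 libraries farthest from the median of Gria1, r was -0.801, and -0.809 without HT fluoxetine female replicate 2. Gria1 and Cacng2 (r = -0.842, rho = -0.738) and Gria4 and Cnih2 (r = -0.812, rho = -0.706) were opposed with the same permutation p-values, and kept r of -0.775 and -0.701 without replicate 2. Cacng2 and Cacng3, both gamma subunits, varied together (r = 0.827, rho = 0.769), as did Gria3 and Cnih3 (r = 0.827, rho = 0.694), with r of 0.748 and 0.75 without replicate 2. By contrast, the r of 0.669 between Gria1 and Cacng8 was 0.297 without that library, and it did not pass (permutation p = 0.082, adjusted p = 0.16).

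**Figure D5:**
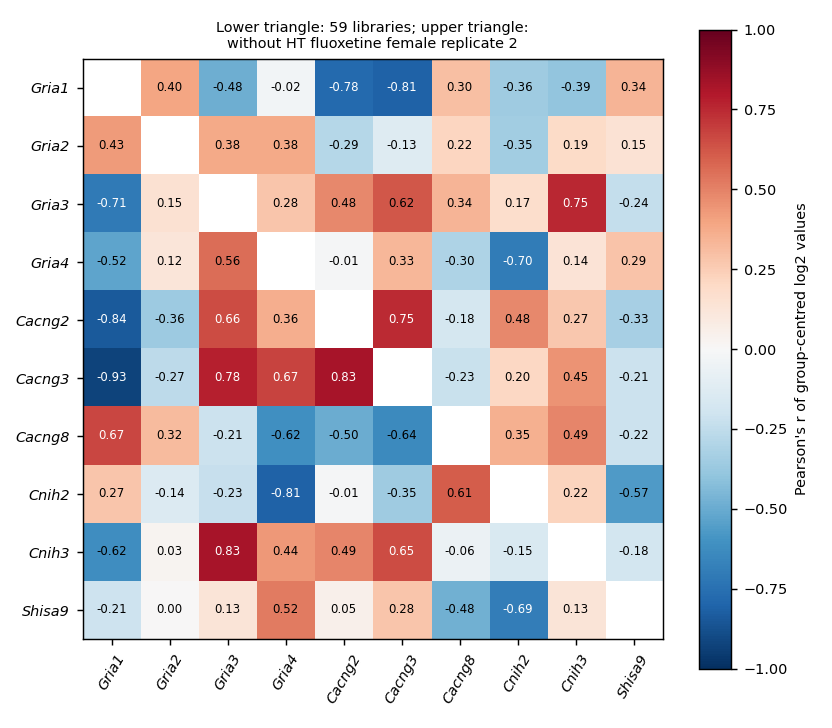
Pearson's r between the group-centred log2 values of each pair of genes, over 59 libraries in the lower triangle and over 58, without HT fluoxetine female replicate 2, in the upper one. The blue cells of Gria1 with Cacng2 and Cacng3 and the red cells of Cacng2 with Cacng3 and of Gria3 with Cnih3 are seen in both triangles.

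The same values were set beside 11 lists of cell type and region markers (110 pairs). Gria3 followed the excitatory neuron markers (r = 0.834, rho = 0.747, both with permutation p = 1e-05 and adjusted p = 0.00016), and r was 0.794 without replicate 2. Cacng2, Cacng3 and Cnih3 did so too, with r of 0.736, 0.695 and 0.717. Gria1 ran opposite to the same markers (r = -0.644, rho = -0.556, adjusted p = 0.00024 and 0.00051), with r of -0.536 without replicate 2. Shisa9 (r = -0.15, adjusted p = 0.59) did not pass, and its r was -0.477 without replicate 2. The other 4 members did not pass either. Cnih2 ran opposite to the olfactory bulb markers (r = -0.752, rho = -0.756, adjusted p = 0.00016 for both), and r was -0.753 without replicate 2. Gria1 followed the dentate gyrus markers with r = 0.822, which became 0.512 without that library and did not pass (permutation p = 0.026, adjusted p = 0.083). Cacng3 ran opposite to these markers (r = -0.843, permutation adjusted p = 0.036), and r was -0.564 without replicate 2. Its rho of -0.393 did not pass (adjusted p = 0.06). Gria4 ran opposite to the markers of oligodendrocytes (r = -0.704, adjusted p = 0.00055) and of their precursors (r = -0.684, adjusted p = 0.00016). Cnih2 followed the precursor markers (r = 0.675, adjusted p = 0.00016). Without replicate 2 these r were -0.579, -0.649 and 0.624. Cacng8 followed the oligodendrocyte markers (r = 0.652, rho = 0.438, permutation adjusted p = 0.003 and 0.012), with r of 0.495 without replicate 2. Other pairs passed as well. Of all genes, those most like the mean of the 10 standardized members were Pcdhac2, a clustered protocadherin (r = 0.85 over 59 libraries), Fam49a (0.846), Gda (0.832), Acsl4 (0.831) and Tlk1 (0.829).

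The wider AMPA receptor machinery was read from 43 further genes in 7 lists. For HT against WT under vehicle 0 of 43 were called. Fluoxetine in WT gave 2 calls higher and 0 lower, beside 7% and 7.78% of all genes, and fluoxetine in HT gave 11 higher and 1 lower, beside 6.63% and 7.38%. Without replicate 2, which also enters the pooled spread of the WT comparison, there were 4 higher and 1 lower in WT and 13 and 1 in HT. In HT the median log2 change of the 43 genes was 0.02 beside -0.0024 for all genes, and 0.06 beside 0.0012 without replicate 2. The difference between the genotypes was called for none of the 43 genes. Lithium gave 1 call higher in each genotype, beside 1.33% of all genes in WT and 2.75% in HT, and without replicate 2 it gave 1 higher and 1 lower in WT and 4 higher in HT.

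Called under fluoxetine in both genotypes were Frrs1l, which assembles AMPA receptors in the endoplasmic reticulum, and Prrt2, a presynaptic protein found in receptor preparations. Frrs1l ranged from 9982 to 13097 in WT vehicle and from 12290 to 16235 in WT fluoxetine (log2 change 0.29, SE 0.06, adjusted p = 0.000615 in limma), and changed by 0.19 in HT (SE 0.06, adjusted p = 0.0234). Most WT fluoxetine values lay above the vehicle range, with some overlap. Frrs1l was also the 1 gene of the 43 called under lithium in HT (0.21, SE 0.06, adjusted p = 0.0302). Prrt2 changed by 0.21 in WT and 0.33 in HT, and was higher in HT than in WT under lithium (0.28, adjusted p = 0.0453 in limma).

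In HT under fluoxetine, 1 of 7 other auxiliary subunits rose: Shisa7, from 6037 ± 300 in vehicle to 7166 ± 392 (SD, n = 10 each; log2 change 0.25, SE 0.04). All 10 fluoxetine libraries, at 6708 to 8137, were above the median of HT vehicle (6017). Of 6 assembly genes 3 rose, with Cpt1c (0.12) and Abhd12 (0.11) beside Frrs1l. Of 12 other complex proteins Prrt1 (0.19) and Prrt2 rose and Vwc2 fell (-0.29). Of 9 anchoring and trafficking genes Camk2a, the kinase that phosphorylates GluA1, rose by 0.27 and Epb41l1 by 0.11. Of 3 neuronal pentraxins, which cluster AMPA receptors from outside, Nptxr rose by 0.23, and of 5 kainate receptor genes Grik4 rose by 0.35 and Grik5 by 0.13. Without replicate 2 all 12 of these were called in the same direction, with Grik4 down to 0.22, and Gsg1l (0.23) and Brinp2 (0.18) were called higher as well. Adarb1, the editing enzyme, was not called (-0.04). In the same comparison 3 of 4 oligodendrocyte precursor markers (Pdgfra, Cspg4, Olig2) and 1 of 5 microglia markers (Csf1r) were called higher, and 2 of 4 endothelial markers (Cldn5, Kdr) lower. Of 7 excitatory neuron markers 2 were called higher, Neurod2 and Camk2a, and Camk2a is the same gene as in the anchoring and trafficking list. The part of these markers in the changes of the 43 genes was not tested.

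Lithium in WT raised Nptx2, an activity-regulated pentraxin, from 1296 ± 137 to 1590 ± 184 (SD, n = 10 each; log2 change 0.29, SE 0.08, adjusted p = 0.0334 in limma). Nptx2 ranged from 1000 to 1484 under vehicle and from 1248 to 1896 under lithium, with overlap. Of 7 inhibitory neuron markers, 1 was called in this comparison, Pvalb (0.46), and the 7 ran from -0.10 to 0.46 with a median of 0.04; their part in the Nptx2 change was not tested. Fluoxetine minus lithium called 7 of the 43 genes higher and 3 lower in WT, beside 10.1% and 11.2% of all genes, and 5 higher and 2 lower in HT, beside 6.18% and 6.88%. Without replicate 2 there were 9 and 3 in WT and 4 and 1 in HT. In both genotypes, Shisa7 (0.12 in WT and 0.22 in HT), Prrt2 (0.37 and 0.20) and Camk2a (0.18 and 0.21) were higher under fluoxetine and Nptx2 lower (-0.25 and -0.27). Without replicate 2 the calls of Prrt2 (0.19, adjusted p = 0.0615 in limma) and Nptx2 (-0.20, adjusted p = 0.0557) in HT were lost. Shisa7 was the only gene of the 43 called between the sexes, with a difference of -0.07, male minus female (adjusted p = 0.0476 in limma), and this call was lost without replicate 2 (-0.07, adjusted p = 0.0602).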

How the data were processed

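The submitters' processing notes name DESeq2 1.19.11, Salmon 0.11.2, R 3.6.0 and the build GRCm38. The table the authors deposited holds signal, here taken as estimated gene counts divided by a normalization factor per library. Low values were whole multiples of a step in only 28.3% to 66.8% of cases per library (median 56.7%), so reads were not recovered. Libraries were grouped by the genotype, drug and sex in their labels. GENCODE M21 gave symbols, positions, transcript lengths and sequences for 51285 identifiers. The other 171 held 0.0033% of the summed values.

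Values were analysed as log2(value + 1) for 16919 genes with a mean of at least 10, with limma 3.58.1 in R 4.3.3 (trend, robust, 12 group means, 47 residual degrees of freedom). Each effect is the mean of the effects in the 2 sexes. Tests were two-sided and adjusted by Benjamini-Hochberg over all genes, and calls needed an adjusted p under 0.05. The spread between libraries includes counting error. Log2 changes are on the log2(value + 1) scale. The script was tested on simulated data. Levels, correlations and plots were made with SciPy 1.17.1, matplotlib 3.10.9, pandas 2.3.3 and NumPy 2.4.6 in Python 3.11.15. The sums of marker genes per library were checked against the tissue and sex labels. HT fluoxetine female replicate 2 stood apart in markers of choroid plexus and dentate gyrus, and olfactory bulb markers varied widely between libraries. No 2 libraries were identical.

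By the rule for named genes all 10 members belong to every comparison: each is described by the counts, the median and the range, and those with a call, with others chosen after their values were seen, are given by name. Of the other lists, up to 4 called genes per list and comparison with the smallest p were named, and of all genes the 5 most correlated with the members' mean. The members, the lists and the 4 libraries left out together were chosen with earlier results of these data known. Alternatives were other scalings, pseudocounts and filters, only the groups compared, no robust step, a replicate block, a correction for length and GC content (spline with 4 degrees of freedom, trend from genes with a mean of at least 250), leaving out libraries and an exact permutation within each sex. Each sex alone, HT females without replicate 2, and the pooled spread without that library were added after the data were seen.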

Additional observations from a re-analysis of the deposited data

Results flagged for a closer look

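In 12 of the 60 sets of a member and a genotype and drug group, 1 library lay farther from the rest than Dixon's 95% critical value allows, where chance gives about 1 in 20. In 9 of them it was HT fluoxetine female replicate 2, which had the highest value of its group for Gria1 (31304.9), Cacng8 (2339.2) and Cnih2 (8114), and the lowest for Gria3 (6838.6), Gria4 (1977.1), Cacng2 (1901.8), Cacng3 (1198.2), Cnih3 (1789.8) and Shisa9 (1683.7). The nearest other libraries of the group were at 13401.4 for Gria1 and at 3865 for Cacng3. The other 3 were Gria4 in HT vehicle female replicate 1 (5191, with the next at 4029.9), Cacng8 in WT vehicle female replicate 1 (959.6, with the next at 1058.7) and Cacng8 in WT fluoxetine male replicate 1 (924.9, with the next at 1130.4). In both of the last named libraries the olfactory bulb markers were high, with mean log2 deviations of 2.69 and 2.40, and their part was not tested.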

How the results depend on the processing

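Of 640 log2 changes of members under other settings of limma, 607 kept their sign and their side of the threshold, 1 lost its call, 5 gained one and 27 turned in sign, 2 of them with a call. Of 50 exact permutation tests, 5 had an unadjusted p under 0.05 for a change not called by limma. Of 990 with 1 library left out, 931 kept both, 1 gained a call and 58 turned in sign. The cause was not tested. The replicate block changed no call of a member (Cacng8 under fluoxetine in HT: adjusted p = 0.00997), though genes called between genotypes under fluoxetine went from 2 to 31 with it. Libraries with the same number did not vary together (r from -0.182 to 0.288), so the numbers were not taken to pair them.

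Members called moved as follows. The correction for length and GC content gave 1 under fluoxetine in WT (Gria2, -0.1518), 2 in HT (Cacng8 and Cnih2) and 1 for fluoxetine against lithium in WT (Gria2, -0.0976). With the replicate block added, the 3 counts were the same 1, 2 and 1, and fluoxetine against lithium in HT gave 1 (Gria4). Without the 4 libraries that stood apart in earlier results, lithium in HT gave 1 (Cacng8) and fluoxetine against lithium in WT 2 (Gria1 and Cacng8). With the pooled spread from the 58 libraries other than HT fluoxetine female replicate 2, lithium in HT gave 1 (Cacng8) and fluoxetine against lithium in WT 2 (Gria1 and Cacng8). With only the groups compared, fluoxetine in HT gave 0, lithium in HT 1 (Cacng8) and fluoxetine against lithium in WT 1 (Gria1). The unadjusted exact permutation gave 2 under fluoxetine in WT and 3 under lithium in HT. In females alone fluoxetine in HT gave 3 and lithium in HT 1, and in males alone fluoxetine in HT gave 0. With 1 library left out, fluoxetine in HT gave 1 to 2 and fluoxetine against lithium in HT 0 to 1: Gria4 without HT fluoxetine female replicates 1, 3 or 5, Gria1 without female replicate 4 and Gria2 without male replicate 4.

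Signs turned as follows. With the same sum in each library: Cnih2 for genotype in vehicle -0.0043, Gria2 under fluoxetine in WT -0.0031, Cacng2 under fluoxetine in HT -0.0125 and Shisa9 under lithium in HT -0.0153, the last also with the same 75th percentile (-0.0014). With the correction for length and GC content, and in brackets with the replicate block too: under fluoxetine in WT Gria2 -0.1518 (-0.1496), Gria3 -0.0103 (-0.0097), Cnih2 0.0229 (0.0224) and Cnih3 0.0092 (0.0101), under fluoxetine in HT Gria2 -0.011 (-0.011), Cacng2 -0.0189 (-0.0189) and Cnih3 0.0013 (0.0013), and under lithium in WT Cacng8 0.0005 (0.0005). Without the 4 libraries: under fluoxetine in HT Gria4 0.0491, Cacng3 0.141, Cnih3 0.0499 and Shisa9 0.0231, and under lithium in HT Gria1 0.0101 and Shisa9 -0.0118. With 1 library left out: for genotype in vehicle Cnih2 -0.034 to 0.0297 and Gria4 -0.05 to 0.0175, under fluoxetine in WT Cnih3 -0.0595 to 0.0166, under fluoxetine in HT Cacng2 -0.0041 to 0.085, Cacng3 -0.1154 to 0.1186, Cnih3 -0.0265 to 0.0507 and Shisa9 -0.0548 to 0.0148, under lithium in WT Cacng3 -0.0214 to 0.0295, Cacng8 -0.0298 to 0.0191, Cnih2 -0.068 to 0.0056 and Shisa9 -0.0262 to 0.0157, and under lithium in HT Gria1 -0.0242 to 0.03 and Shisa9 -0.0132 to 0.0286.

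Counts over all genes moved by more than 1.5 times in these cases. The correction for length and GC content took fluoxetine in WT from 2500 to 910 (923 with the replicate block), genotype under fluoxetine from 2 to 4 (13) and genotype under lithium from 93 to 32 (36). No filter on low values gave 4 for genotype in vehicle (against 1), 212 for lithium in WT (376), 448 for lithium in HT (847), 31 for genotype under lithium (93) and 172 for sex (355). The same sum in each library gave 241 for genotype under lithium, and 1 each for lithium by genotype and by sex (0). Without the 4 libraries there were 2 for genotype in vehicle, 1958 for lithium in HT, 339 for genotype under lithium, and 1, 21 and 70 for fluoxetine by genotype, lithium by genotype and lithium by sex. With only the groups compared there were 5 for genotype under fluoxetine, 449 under lithium, 1460 for fluoxetine against lithium in HT (2209) and 87 for lithium by sex. In females alone there were 1448 and 1480 for fluoxetine in WT and HT (802 in HT without replicate 2) and 199 for lithium in WT, and in males alone 896, 569 and 11, with 3 for lithium in HT. With the spread from 58 libraries there were 180 for genotype under lithium and 33 for lithium by sex. With 1 library left out the counts ran from 1 to 2 for genotype in vehicle, 1 to 132 for genotype under fluoxetine (highest without HT fluoxetine female replicate 1), 15 to 141 for genotype under lithium (lowest without WT lithium male replicate 1), 214 to 435 for lithium in WT (lowest without WT lithium male replicate 4), 356 to 1598 for lithium in HT (lowest without HT vehicle female replicate 4 and highest without female replicate 1), 199 to 1014 for sex (without WT fluoxetine male replicates 4 and 1), 0 to 5 for lithium by genotype and 0 to 26 for lithium by sex. Reads were not recovered from the normalized values, so no limit from depth could be given beside the spread between libraries.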
